A study of Mus musculus with 6 samples.

Results

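The genes described here are the 10 genes of classical major histocompatibility complex (MHC) class I and the immunoproteasome, out of 32285 genes in the deposited matrices. They were chosen by symbol: the heavy chains H2-K1 and H2-D1, the light chain B2m, the peptide transporter subunits Tap1 and Tap2, the loading factor Tapbp (tapasin), the immunoproteasome catalytic subunits Psmb8, Psmb9 and Psmb10, and Nlrc5, a transactivator of class I genes. Expression was measured by droplet single-cell RNA sequencing of hematopoietic stem and progenitor cells (HSPCs) from bone marrow, sorted as CD45.1+ Lin- cKit+ Sca1+ (LSK) cells. All hosts were female C57BL/6J (CD45.1) mice aged 8 to 12 weeks that had received no conditioning. The AML group was given 1000000 cells of C1498, a murine acute myeloid leukemia line carrying CD45.2, and the PBS group was given PBS alone. Both groups were sacrificed on day 21, and each group holds 3 libraries. The leukemia is 1 transplanted cell line, so that differences between the groups refer to that line.

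Class I molecules display peptides of intracellular proteins to CD8 T cells and are also read by NK cells. Peptides are cut by the proteasome, pumped into the endoplasmic reticulum by the Tap1 and Tap2 transporter, and loaded with the help of Tapbp onto a heavy chain paired with B2m. Interferon induces the whole route, and it replaces the constitutive catalytic subunits Psmb5, Psmb6 and Psmb7 by Psmb8, Psmb9 and Psmb10. Nlrc5 acts with RFX, CREB and NF-Y proteins bound at the promoters of class I genes.

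The promoters of the heavy chains and of B2m are shown because either heavy chain pairs with B2m at the surface and the levels of the 3 genes differed in how they varied between libraries. The windows are from RefSeq, build GRCm38.p6, and reach from 250 bases before to 50 bases after a start site. Of the 10 genes, 8 have such a window. Tap2 and Nlrc5 have none in the table used. The search was for the letters TTTCNNTTC, an interferon response type of element, for GGGNNTTCC, an NF-kB type of element, and for TGACG followed on the same strand 18 to 30 bases later by ATTGG. Both strands were searched. The last arrangement resembles that of the X2 and Y boxes of class I promoters, and the letters were chosen with these windows in view. Capitals mark the matches, in lines written 5′ to 3′ on the strand of the gene. They lie at chr17:34000339-34000478 on the minus strand, chr17:35262903-35263042 on the plus strand and chr2:122147589-122147658 on the plus strand.
H2-K1: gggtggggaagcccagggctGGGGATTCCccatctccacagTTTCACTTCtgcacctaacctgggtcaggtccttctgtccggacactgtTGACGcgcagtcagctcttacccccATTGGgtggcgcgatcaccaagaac
H2-D1: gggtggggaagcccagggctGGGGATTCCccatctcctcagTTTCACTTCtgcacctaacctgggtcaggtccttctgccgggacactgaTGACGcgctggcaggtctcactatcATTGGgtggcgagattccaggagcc
B2m: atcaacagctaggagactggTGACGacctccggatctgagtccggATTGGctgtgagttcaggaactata

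The H2-K1 and H2-D1 stretches are each 140 bases long and carry the same base at 120 of the 140 positions (85.7%). Both hold the interferon response letters, the NF-kB letters and the spaced pair, in the same order. Of these 3 patterns the B2m window holds the spaced pair, and that window also holds GAAANNGAA, another spelling of an interferon response type of element, searched after the windows were seen, which 8.56% of all windows and no other gene of the 10 with a window hold. That the shorter letters are not in the B2m window says nothing about the factors. The pair is separated by 20 bases in all 3 genes. Among all 32851 promoter windows of this length, 7.52% hold the interferon response letters, 5.82% the NF-kB letters and 0.487% the spaced pair. In the other 5 genes with a window none of the 3 patterns was found, which says only that these letters are not in the window.

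Tap1 and Psmb9 are transcribed away from each other on chromosome 17, and their promoter windows share 275 bases. The stretch between the starts is shown because Tap1 lay higher in both AML libraries than in PBS and Psmb9 did not. It lies at chr17:34187331-34187555 and is written on the plus strand, the strand of Tap1. Capitals mark the single letter groups CCAAT and TGACG, which 37.4% and 20.8% of all windows hold on either strand.
Tap1 and Psmb9: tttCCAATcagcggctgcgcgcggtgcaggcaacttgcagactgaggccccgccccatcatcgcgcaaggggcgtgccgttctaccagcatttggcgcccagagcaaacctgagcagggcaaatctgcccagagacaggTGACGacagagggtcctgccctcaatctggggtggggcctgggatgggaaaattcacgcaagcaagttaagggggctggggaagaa

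By the GENCODE M21 annotation of GRCm38, 7 of the 10 genes lie on chromosome 17, within 1352 kb from Tapbp to H2-D1. Psmb9, Tap1, Psmb8 and Tap2 are neighbours within 34.3 kb of it. B2m is on chromosome 2, and Nlrc5 and Psmb10 are on chromosome 8. Mouse class I genes resemble each other, so the last 500 bases of each longest coding transcript, where this 3′ chemistry reads, were cut into words of 50 bases. Of the H2-K1 words, 0.443% occur in another gene (H2-D1), and of the H2-D1 words, 9.53% occur in transcripts of 80 other genes. No word of the other 8 genes occurs elsewhere. Values of H2-K1 and H2-D1 therefore carry an uncertainty that the others do not.

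The authors' cell table keeps 16822 cells, 12170 from the 3 PBS libraries and 4652 from AML libraries 1 and 3, and none from AML library 2. Kept cells carry 10403685 to 32123508 UMIs in the PBS libraries, 1945659 in AML library 1 and 27603274 in AML library 3. AML library 1 stands apart. Its log2 CPM profile correlated at 0.916 to 0.942 with the other libraries, against 0.972 to 0.984 among those, and 14.7% of its cells were assigned to G1, against 49.0% to 58.2% elsewhere. Of all barcodes of PBS library 2, 97.4% also occur in AML library 2 and 50.2% in PBS library 1, while kept cells of 2 libraries share 0 to 12 barcodes. Whether this affects levels was not tested. The sorted cell genes Kit, Ly6a, Ptprc, Cd34 and Cd48 summed to 614 to 802 CPM (counts per 1000000 UMIs) in every library. Monocyte, macrophage and dendritic cell markers (11 genes) summed to 406 to 475 CPM in PBS, 446 in AML library 1 and 841 in AML library 3, and T and NK cell markers (9 genes) to 151 to 186 CPM. Neutrophil markers (7 genes) summed to 2.21 to 17.3 CPM, and B cell markers (8 genes) to 1957 to 3097 CPM in PBS against 2140 and 2277 CPM in AML. Erythroid markers (7 genes) ranged from 26.2 CPM in AML library 1, with 3 of them at 0, to 416 CPM in PBS library 1. Among these lists and the class markers, 2 genes were called between AML and PBS in all LSK cells, both higher in AML. Without PBS library 1 only 1 of all genes tested was called higher, so at least 1 of these 2 calls was lost. Ly86, a myeloid and B cell surface-complex gene on the monocyte list, was at 24.7, 13.01 and 39.2 CPM in PBS and 217 and 141 CPM in AML (log2 fold change 2.78, edgeR adjusted p = 0.00708). Ctsg, a granule protease on the MPP-3 list, was at 46.8, 48.8 and 74.2 CPM in PBS and 143 and 186 CPM in AML (1.54, edgeR adjusted p = 0.0250). The class markers moved too: those of HSC (7 genes) summed to 408 to 447 CPM in PBS and to 315 and 314 CPM in AML. Of the 7 genes, 6 were lower in both AML libraries than in PBS, as were 17.4% of all genes tested. Markers of MPP-3 (6 genes) summed to 782 to 1334 CPM in PBS and 1819 and 1817 CPM in AML. HSC cells were 20.5% to 23.9% of kept cells in PBS, 3.32% in AML library 1 and 13.7% in AML library 3. The part of other cells in the levels below was not tested. Apart from the alternative setting with an own filter on 6 libraries, values of AML library 2 are in none of the comparisons here. Over all its barcodes 51.6% of genes lay above every PBS library and 24.1% below, and among 106 barcodes that passed a filter 37.0% above and 44.4% below.

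The first comparison asked whether host HSPCs of leukemic marrow differed in these genes from those of PBS mice. UMIs of kept cells were summed per library and tested by edgeR's quasi-likelihood test with Benjamini-Hochberg adjustment over all 14364 genes tested. None of the 10 genes was called at an adjusted p of 0.05, while 23 of all genes tested were called (0.160%). At an unadjusted p under 0.05 the count was 1 of the 10 (Tap1), beside 1511 of all genes tested (10.5%), and DESeq2 and limma-voom also called 0. The median log2 fold change of the 10 genes was -0.21, beside -0.03 over all genes tested. That median rested on single libraries: it was 0.029 without AML library 1, with 6 of the 10 genes positive, and -0.045 without PBS library 2. Fewer cells with a transcript and less RNA per cell cannot be told apart in these sums. The number of all genes called depended on single libraries: it was 2 without PBS library 1, 8 without PBS library 2 and 419 without AML library 3. Over all 17 alternative settings none of the 10 genes was called.

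**Figure D1:**
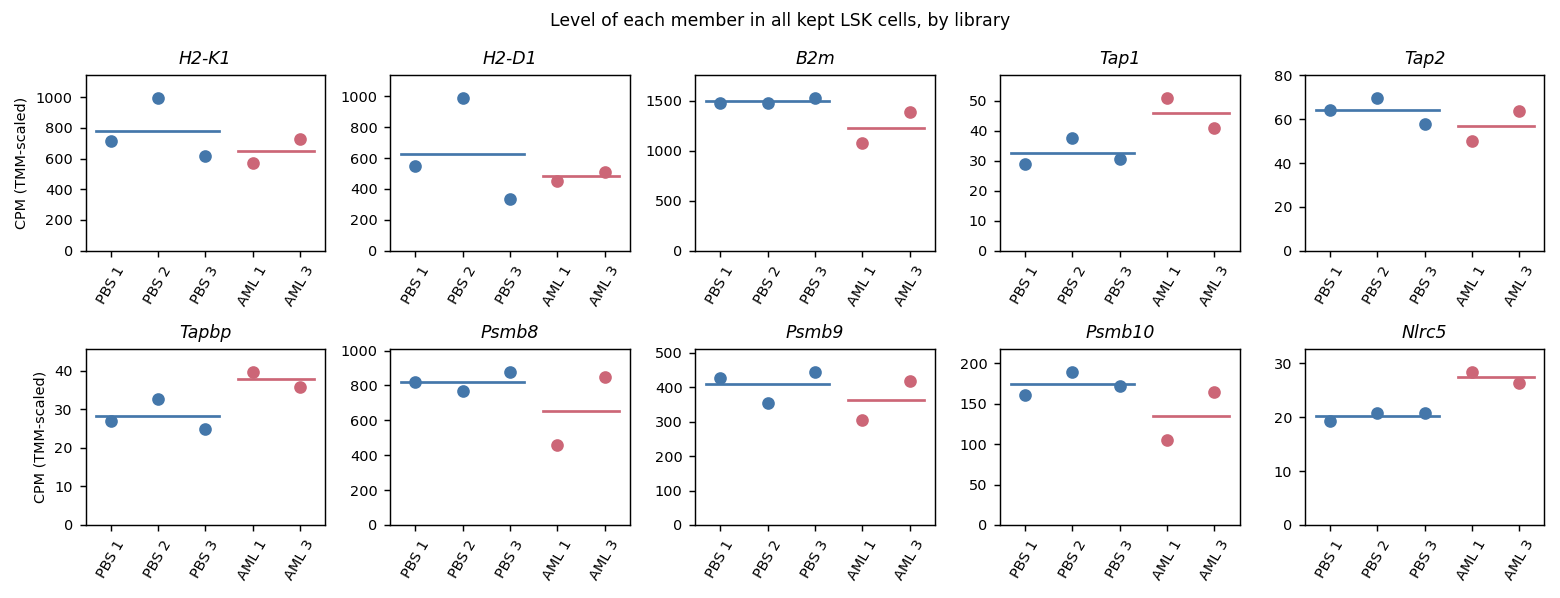
Level of each of the 10 genes in CPM (TMM-scaled library size, linear axes from 0) for PBS libraries 1 to 3 (blue) and AML libraries 1 and 3 (red), with the group mean as a line. Tap1, Tapbp and Nlrc5 lie higher in both AML libraries than in every PBS library, B2m lies lower, and the other 6 genes overlap.

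Tap1 encodes a subunit of the peptide transporter. Its level was 29.1, 37.8 and 30.6 CPM in PBS libraries 1 to 3 and 51.1 and 41.1 CPM in AML libraries 1 and 3. Both AML libraries lay above all PBS libraries, and the log2 fold change was 0.49 ± 0.22 (SE; 95% interval 0.01 to 0.97; edgeR adjusted p = 0.472). Tapbp, which bridges the transporter and the empty class I molecule, was at 27.0, 32.7 and 24.8 CPM in PBS and 39.7 and 35.8 CPM in AML. The groups again did not overlap, with a log2 fold change of 0.42 ± 0.22 (95% interval -0.05 to 0.89; edgeR adjusted p = 0.518). The transactivator Nlrc5 was at 19.3, 20.7 and 20.7 CPM in PBS and at 28.4 and 26.4 CPM in AML, also without overlap. Its log2 fold change was 0.43 ± 0.21 (95% interval -0.02 to 0.87; edgeR adjusted p = 0.492). In AML library 1 these values rest on 99 UMIs of Tap1, 77 of Tapbp and 55 of Nlrc5. Of all genes tested, 14.6% likewise had both AML libraries above all 3 PBS libraries, so 3 of 10 is read against that share.

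Leaving out each library in turn kept these 3 log2 fold changes above 0, within 0.36 to 0.66 for Tap1, 0.35 to 0.55 for Tapbp and 0.40 to 0.49 for Nlrc5. Because the AML libraries hold fewer HSC cells, the 4 classes were also given equal weight in each library, which gave 0.64, 0.33 and 0.28. In G1 cells alone, a choice made after seeing the data, they were 0.58, 0.46 and 0.40, with edgeR adjusted p of 0.911, 0.930 and 0.930. In CPM of plain totals, Tap1 and Tapbp still lay above PBS in both AML libraries in G1 cells. Nlrc5 did not: it was at 25.4 in AML library 1 and 37.5 in AML library 3, against 24.1 to 25.5 in PBS. Top2a, a cycling gene, was at 174 CPM in G1 cells of AML library 1, against 15.1 to 28.4 in PBS. The restriction therefore did not match cycling for that library. In cells thinned to 2000 UMIs, Tap1 was seen in 5.16% to 7.28% of PBS cells, 9.81% of cells of AML library 1 and 8.39% of AML library 3. The unthinned shares were 13.1% to 31.8%, 12.7% and 24.3%, and follow the depth per cell. Class I genes are expressed by nearly all nucleated cells, so no class here could serve as one that lacks Tap1. Thinned Tap1 shares were higher in both AML libraries than in every PBS library.

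Tap2, the partner of Tap1 in the transporter, did not separate the groups. Its level was 64.4, 69.9 and 57.9 CPM in PBS and 50.1 and 63.7 CPM in AML, with a log2 fold change of -0.15 (95% interval -0.63 to 0.33). Without AML library 1 the estimate was 0.0080. A fold change of Tap2 as large as the estimate for Tap1 lies outside this interval, but the difference between the 2 genes was not tested.

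The light chain B2m was the most abundant of the 10 genes. It stood at 1473, 1479 and 1530 CPM in PBS and at 1072 and 1383 CPM in AML libraries 1 and 3. Both AML libraries lay below all PBS libraries, as did 17.4% of all genes tested, and the log2 fold change was -0.28 ± 0.28 (95% interval -0.89 to 0.32; edgeR adjusted p = 0.719). Without AML library 1 it was -0.10 and without AML library 3 -0.48.

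The heavy chains H2-K1 and H2-D1 varied far more than B2m among the PBS libraries. H2-D1 was at 546, 993 and 338 CPM in PBS libraries 1 to 3, a 2.94-fold range, and at 453 and 512 CPM in AML. H2-K1 was at 717, 997 and 615 CPM in PBS, a 1.62-fold range, and at 570 and 729 CPM in AML. B2m ranged 1.04-fold across the same PBS libraries. PBS library 2 was highest in both heavy chains, and PBS library 3 lowest among PBS, while the AML values of H2-D1 fell inside the PBS range. The log2 fold changes were -0.26 (95% interval -0.89 to 0.38) for H2-K1 and -0.37 (95% interval -1.18 to 0.43) for H2-D1. Both estimates rested on PBS library 2: without that library H2-D1 was at 0.14 and H2-K1 at -0.020. Without AML library 1, H2-K1 was at -0.076, and without AML library 3 at -0.44.

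Expressed as UMIs per B2m UMI, H2-D1 was at 0.371, 0.671 and 0.221 in PBS and 0.422 and 0.370 in AML. H2-K1 was at 0.487, 0.674 and 0.402 in PBS and 0.532 and 0.527 in AML. The ratio of H2-K1 to H2-D1 UMIs ran from 1.00 in PBS library 2 to 1.82 in PBS library 3, so the heavy chains did not move in equal measure. Over the 20 sums of 1 library and 1 class, their log2 CPM correlated at 0.91. That value is a description, since sums of 1 library share cells, depth and preparation. H2-K1 and B2m correlated at 0.52 and H2-D1 and B2m at 0.27 over the same sums. PBS library 2 also had the fewest kept cells of the PBS group (934) and the highest median depth, 9586 UMIs per cell against 4015 and 4388.

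Other class I and class I-like chains were read in 15 genes, of which 10 were tested and 0 called. Their summed level was 450, 605 and 321 CPM in PBS and 348 and 437 CPM in AML. The order of the PBS libraries was that of the heavy chains. H2-T23, which encodes the nonclassical molecule Qa-1, was the most abundant of them at 155, 214 and 124 CPM in PBS and 96.0 and 139 CPM in AML.

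The immunoproteasome subunits were read next. Psmb8 was at 817, 767 and 878 CPM in PBS and at 460 and 848 CPM in AML libraries 1 and 3. Psmb9 was at 426, 354 and 444 CPM in PBS and 304 and 418 CPM in AML, and Psmb10 at 161, 190 and 172 CPM in PBS and 105 and 164 CPM in AML. In each case AML library 1 was the lowest library and AML library 3 lay within the PBS range. The log2 fold changes were -0.32 (95% interval -0.98 to 0.33) for Psmb8, -0.17 (-0.75 to 0.40) for Psmb9 and -0.36 (-0.91 to 0.20) for Psmb10. Without AML library 1 they became 0.06, 0.05 and -0.07, so that the lower means of AML rested on that library. The constitutive subunits also had their lowest value of Psmb5 and Psmb6 in AML library 1 (185 and 189 CPM, against 305 to 375 and 241 to 297 CPM in the other libraries). Psmb7 went the other way, highest in AML library 1 at 84.1 CPM against 67.6 to 72.3 CPM in the others.

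Because each immunosubunit takes the place of 1 constitutive subunit, the share of each catalytic pair was computed from UMIs within a library. Psmb8 made up 71.1% ± 1.52 (SD, n = 3) of Psmb8 and Psmb5 UMIs in PBS and 71.5% ± 0.255 (n = 2) in AML. Psmb9 made up 61.0% ± 2.55 of Psmb9 and Psmb6 UMIs in PBS and 61.9% ± 0.446 in AML. In all LSK cells neither pair differed beyond the spread of the PBS libraries (exact permutation test over libraries, two-sided, p = 0.8 for both and 0.8 after adjustment over 3 pairs). For Psmb10 and Psmb7 the share was 70.5%, 72.4% and 70.8% in PBS, 55.6% in AML library 1 and 70.7% in AML library 3. AML library 1 was the only one outside the others, with a 95% exact binomial interval of 50.3% to 60.7% on 367 UMIs, while AML library 3 lay among the PBS libraries. The mean difference was -8.07 percentage points (exact permutation p = 0.2, adjusted 0.6) and -0.49 points without AML library 1. With 3 against 2 libraries the smallest exact p is 0.1. Within classes the Psmb9 share in HSC was 59.1% ± 3.17 in PBS and 70.0% ± 9.77 in AML, a difference of 10.9 points (exact permutation p = 0.1, adjusted 0.3), where AML library 1 had 76.9% on 26 UMIs. For the Psmb10 share the difference was -8.84, -5.85, -11.6 and -7.38 points in order from HSC to MPP-4, with exact permutation p of 0.1 or higher and adjusted p of 0.3 or higher. In MPP-3 it was 53.3% in AML library 1 on 107 UMIs and 69.8% in AML library 3, against 70.8% to 74.9% in PBS. Intervals cover counting error only.

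**Figure D2:**
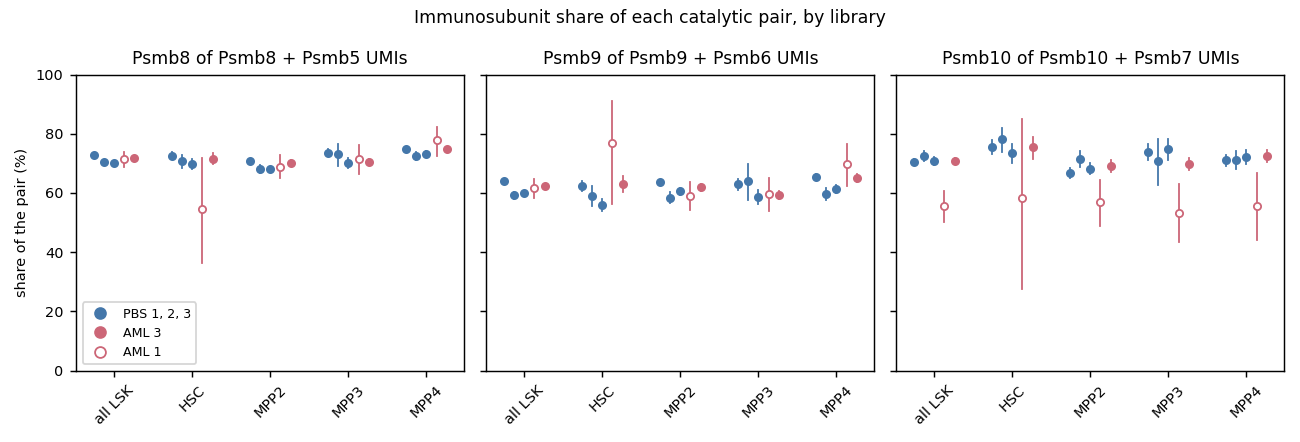
Share of the immunosubunit among UMIs of each catalytic pair (percent, axis from 0 to 100), in all LSK cells and in each class, for PBS libraries (blue), AML library 3 (filled red) and AML library 1 (open red), with 95% exact binomial intervals. Shares lay between 54.5% and 78.1% apart from Psmb10 in AML library 1, which had 53.3% to 58.3%, and the widest intervals are those of AML library 1 in the HSC class, which rest on 12 to 33 UMIs.

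The other genes of the route were also read in all LSK cells, and 0 of them were called. Of the 7 genes for chaperones and peptidases of loading, 6 had a positive log2 fold change, with a median of 0.28. Calr, the chaperone calreticulin that holds the heavy chain for loading, was at 101, 127 and 117 CPM in PBS and 299 and 132 CPM in AML, a log2 fold change of 0.90 ± 0.31 (edgeR adjusted p = 0.327). Both AML libraries lay above PBS, but most of the difference was in AML library 1. Pdia3, the oxidoreductase partner of Tapbp, was at 263, 192 and 166 CPM in PBS and 253 and 217 CPM in AML. The assembly factor Pomp and the PA28 activator subunits Psme1, Psme2 and Psme3 had a median of 0.18, and Psme1 was at 756 to 908 CPM in PBS and 882 CPM in both AML libraries. Of 10 transcription factors of these genes, 3 had a positive sign, and the median was -0.03. Irf1, an interferon-induced factor, was at 58.8 CPM on average in PBS and 46.8 in AML, with a log2 fold change of -0.30 (edgeR adjusted p = 0.672). Irf2 was at 112 and 113 CPM, and Creb1 at 62.6 and 56.7 CPM.

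The same comparison was made within each of the authors' 4 classes, MPP-4, MPP-3, MPP-2 and HSC, which are calls from module scores in the deposited table. AML library 1 holds 325 MPP-2, 228 MPP-3, 117 MPP-4 and 23 HSC cells. None of the 10 genes was called in any class by edgeR. Of all genes tested, 0.178% were called in the HSC class, 0.0399% among MPP-2 cells, 0.0486% among MPP-3 cells and 0.0325% among MPP-4 cells. At an unadjusted p under 0.05, Tap1, Tapbp and Nlrc5 passed in HSC, and Tap1 and Nlrc5 in MPP-4. No other member passed in any class. Of all genes tested, 444 (4.16%) passed in HSC and 730 (5.93%) in MPP-4. Tapbp passed in HSC although AML library 1 had 0 UMIs of it there and the mean of the libraries was 28.6 CPM in PBS and 24.9 CPM in AML.

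**Figure D3:**
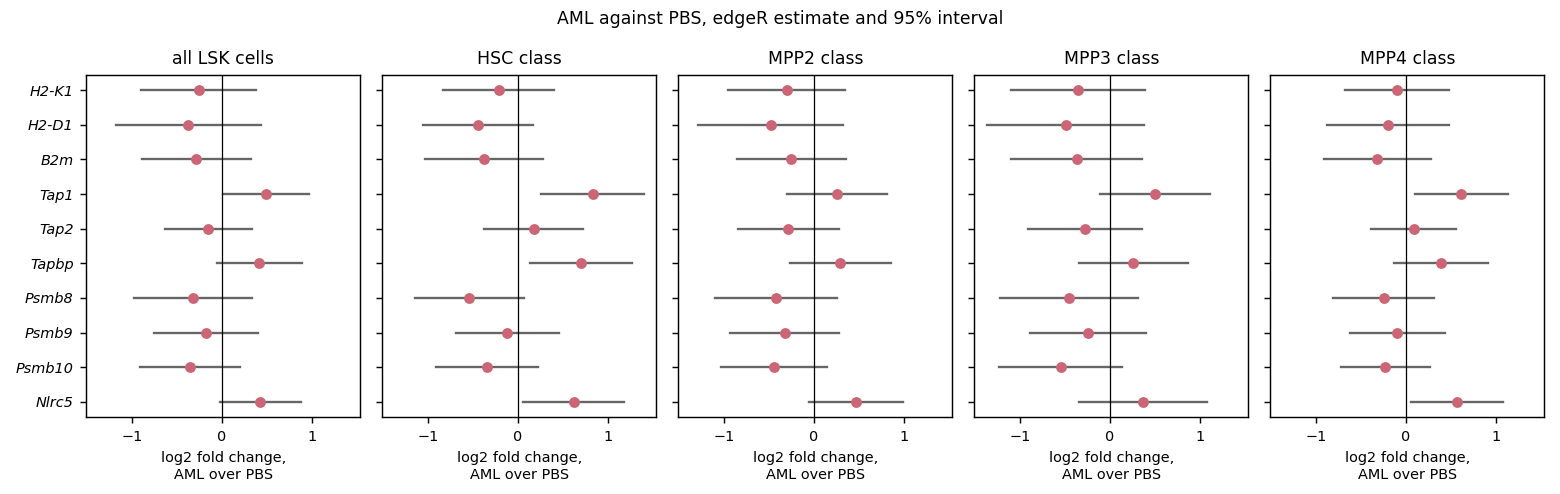
Log2 fold change of AML over PBS for each gene (points) with 95% intervals from edgeR with TMM scaling (lines), in all LSK cells and in each class. Tap1, Tapbp and Nlrc5 are to the right of 0 in all 5 panels, and B2m, H2-K1, H2-D1, Psmb8, Psmb9 and Psmb10 to the left; with plain totals 6 of the 10 are positive in HSC and 5 in MPP-4.

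Markers of other cells moved within classes as well. In HSC, 4 of 7 erythroid markers were tested and all 4 were called lower in AML (edgeR adjusted p of 0.00104 or lower): Hbb-bs averaged 537 CPM in PBS and 5.05 CPM in AML, Hba-a1 217 and 2.32, Hba-a2 182 and 1.90, and Hbb-bt 159.6 and 42.4 CPM. For 2 of the 4 both AML libraries lay below every PBS library, as for 16.3% of all genes tested. For the rest the groups overlapped. DESeq2 and limma-voom called 0 genes in the HSC class. Ly86 was called higher among MPP-2, MPP-3 and MPP-4 cells (log2 fold changes 2.42, 2.20 and 1.73), and Elane, another granule protease, among MPP-2 cells (2.88). Without PBS library 3, 0 genes were called among MPP-2 cells and 0 among MPP-4 cells, so these calls were lost there. S100a8, a neutrophil gene, was called lower among MPP-3 cells by edgeR, at 11.2 CPM in PBS and 0.123 CPM in AML. With limma-voom 0 genes were called lower in that class. Phases differed too. In AML library 1, 56.5% of HSC, 13.6% of MPP-3 and 28.2% of MPP-4 cells were assigned to G1. AML library 3 had 86.9%, 40.9% and 66.3%, and PBS 84.1% to 87.9%, 55.5% to 58.5% and 71.7% to 75.9%. MPP-2 shares lay within PBS. In the same order Top2a, a cycling gene, was at 375, 695 and 528 CPM of plain totals in AML library 1. It was at 73.0, 210 and 185 in AML library 3, and 41.6 to 63.7, 73.2 to 183 and 114 to 147 in PBS. The part of these markers and of cycling in the values of the 10 genes was not tested.

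In the HSC class Tap1 was at 29.5, 38.5 and 29.6 CPM in PBS and 108 and 50.5 CPM in AML libraries 1 and 3, a log2 fold change of 0.83 ± 0.29 (edgeR adjusted p = 0.640). The value of 108 CPM rests on 8 UMIs, and the log2 fold change was 0.66 without AML library 1 and 1.72 without AML library 3. Among MPP-4 cells it was at 34.3, 37.9 and 29.8 CPM in PBS and 70.0 and 44.9 CPM in AML (0.61 ± 0.25, edgeR adjusted p = 0.760; 0.41 without AML library 1 and 1.03 without AML library 3). The MPP-3 values were 21.7, 26.5 and 27.7 CPM in PBS and 34.6 and 35.5 CPM in AML. In these 3 classes both AML libraries lay above PBS, whereas in MPP-2 the AML values of 44.5 and 38.6 CPM overlapped PBS at 27.3 to 43.3 CPM. AML library 1 supplied the highest Tap1 value in every class but MPP-3.

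Nlrc5 lay above PBS in both AML libraries in 3 classes. It was at 29.5, 36.0 and 33.8 CPM in PBS and 40.6 and 51.4 CPM in AML in HSC, with a log2 fold change of 0.62 ± 0.29 (edgeR adjusted p = 0.992). The value of 40.6 CPM rests on 3 UMIs, and without AML library 3 the log2 fold change was 0.27. In MPP-4 the values were 21.7, 23.7 and 24.4 CPM against 40.4 and 32.6 CPM, and in MPP-2 they were 14.6, 15.4 and 15.0 CPM against 19.1 and 21.4 CPM. In MPP-3 the groups overlapped. Tapbp separated the groups in MPP-3 and MPP-4. In HSC it was listed at 0 UMIs in the 23 cells of AML library 1 and at 49.7 CPM in AML library 3, above PBS at 21.9 to 38.5 CPM. MPP-3 cells of cluster 4 numbered 111 of 796, 10 of 41 and 90 of 422 in PBS, and 59 of 228 and 294 of 882 in AML. In cluster 4 over all classes, Tapbp ran from 31.8 to 42.5 CPM of plain totals in PBS and from 37.6 to 48.6 in AML. The part of this shift in the MPP-3 values was not tested.

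Counted over the 10 genes, both AML libraries lay above PBS for 2 of them in HSC (11.0% of all genes tested there), for 1 in MPP-2 (14.1%), for 2 in MPP-3 (12.0%) and for 3 in MPP-4 (13.2%). B2m lay below PBS in both AML libraries in every class. With it, 3 of the 10 genes did so in HSC (Psmb8 and Psmb10 as well; 16.3% of all genes tested there), 1 in MPP-2 (14.8%), 2 in MPP-3 (Psmb9 as well; 12.6%) and 1 in MPP-4 (14.5%). These counts depend on the scaling. With plain totals in place of TMM, a choice made after seeing the data, the median log2 fold change over all genes moved from -0.03 to 0.12 in HSC and from -0.01 to 0.11 in MPP-3, and none of the 10 genes, B2m included, lay below PBS in any class (7.19%, 10.2%, 5.29% and 8.62% of all genes did, from HSC to MPP-4). The genes above PBS were then 3, 1, 3 and 4 of the 10 in the same order, beside 19.5%, 16.1%, 16.8% and 17.3% of all genes, with Nlrc5 in all 4 classes and Tap2 added in HSC and MPP-4. In all LSK cells, Tap1, Tapbp and Nlrc5 lay above PBS with either scaling. B2m lay below with plain totals by about 1 CPM (1417 in AML library 3 and 1418 in PBS library 3), and the groups overlapped among all barcodes with 1000 or more genes detected and a mitochondrial share of 10% or less (1422 and 1417 CPM in the same libraries). A difference of the AML effect from class to class was tested with class-by-treatment terms. Of all genes tested 0.872% were called, of the 10 genes 0, and the lowest unadjusted p among them was 0.0955 (Tapbp; edgeR adjusted p = 0.562). The count of 111 genes was 29 without PBS library 1, 50 without PBS library 3, 189 without PBS library 2 and 19 by limma-voom, with 0 of the 10 genes in each.

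Within the authors' clusters 0 to 4, where both AML libraries had at least 20 cells, none of the 10 genes was called either. The shares of all genes called by edgeR were 0.0407%, 0.155%, 0.199%, 0.156% and 0.522%. Those counts rested on single libraries: leaving out each library gave 0 to 142 genes in cluster 0, 4 to 496 in cluster 1, 8 to 109 in cluster 2, 2 to 17 in cluster 3 and 18 to 101 in cluster 4, with the most without AML library 3 and 0 members in every case. Of the marker lists, Ly86, Ctsg, Elane, Csf1r, Cd74 and Pf4 were called higher in AML in at least 1 of these clusters, and Gata2 and Dntt lower in cluster 4. Clusters 5 to 8 had too few cells of AML library 1 for a test.

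The members were next compared between the classes in the PBS libraries alone, with the library as a term, so that leukemia plays no part. CPM values in these paragraphs use TMM factors set across the 12 sums of library and class, so they differ from those given for the same libraries within 1 class. Across the 4 classes 60.7% of all genes tested were called by edgeR, and 6 of the 10 genes, which is the same share. The members called were Psmb8, Psmb9, Psmb10, Tap2, Tapbp and Nlrc5, and the genes of the surface molecule itself, H2-K1, H2-D1 and B2m, were not among them, nor was Tap1. That list depended on clusters 6 to 8: without them, a choice made after seeing the data, 9 of the 10 genes were called across the classes, beside 60.6% of all genes tested, and B2m was called lower in MPP-2 than in HSC (-0.11, edgeR adjusted p = 0.0447; 52.0% of all genes called) and in MPP-3. With TMM scaling, Psmb8 and Psmb9 were higher in all MPP classes than in HSCs, Psmb10 in MPP-2 and MPP-3, Tap2 was highest in MPP-4, and Nlrc5 was highest in HSCs.

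Several of these calls depend on how the classes are scaled. With plain totals, an alternative added after seeing the data, the median log2 difference over all genes went from -0.04 to -0.27 in MPP-2, from -0.01 to -0.34 in MPP-3 and from 0.01 to -0.05 in MPP-4. The calls of all genes split into 1767 higher and 4877 lower in MPP-2, 931 and 4570 in MPP-3 and 1133 and 1766 in MPP-4, against 3075 and 3005, 2379 and 1848, and 1728 and 1586 with TMM. Calls made under both scalings were Psmb8 higher in all 3 MPP classes (0.36, 0.27 and 0.34 with plain totals), Psmb9 higher in MPP-2 (0.49) and MPP-4 (0.24), Tap2 higher in MPP-4 (0.47) and Nlrc5 lower in all 3 (-1.02, -0.82 and -0.42). The plain totals did not give the calls of Psmb10 in MPP-2 and MPP-3 (0.033 and 0.059), Psmb9, Tapbp and Tap2 in MPP-3 (0.15, 0.30 and -0.012) and Tap1 in MPP-2 (0.14). They did call the surface molecule lower: in MPP-2 the log2 differences were -0.21 for H2-K1, -0.21 for H2-D1 and -0.35 for B2m, and in MPP-3 -0.45, -0.29 and -0.37 (edgeR adjusted p of 0.0405 or lower). The members called numbered 7 across the classes, beside 70.0% of all genes, and 6, 5 and 4 against HSC, beside 56.3%, 46.6% and 24.6%. Differences of other genes between MPP-2 or MPP-3 and HSC below are given with TMM, and plain totals were not listed for them.

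**Figure D4:**
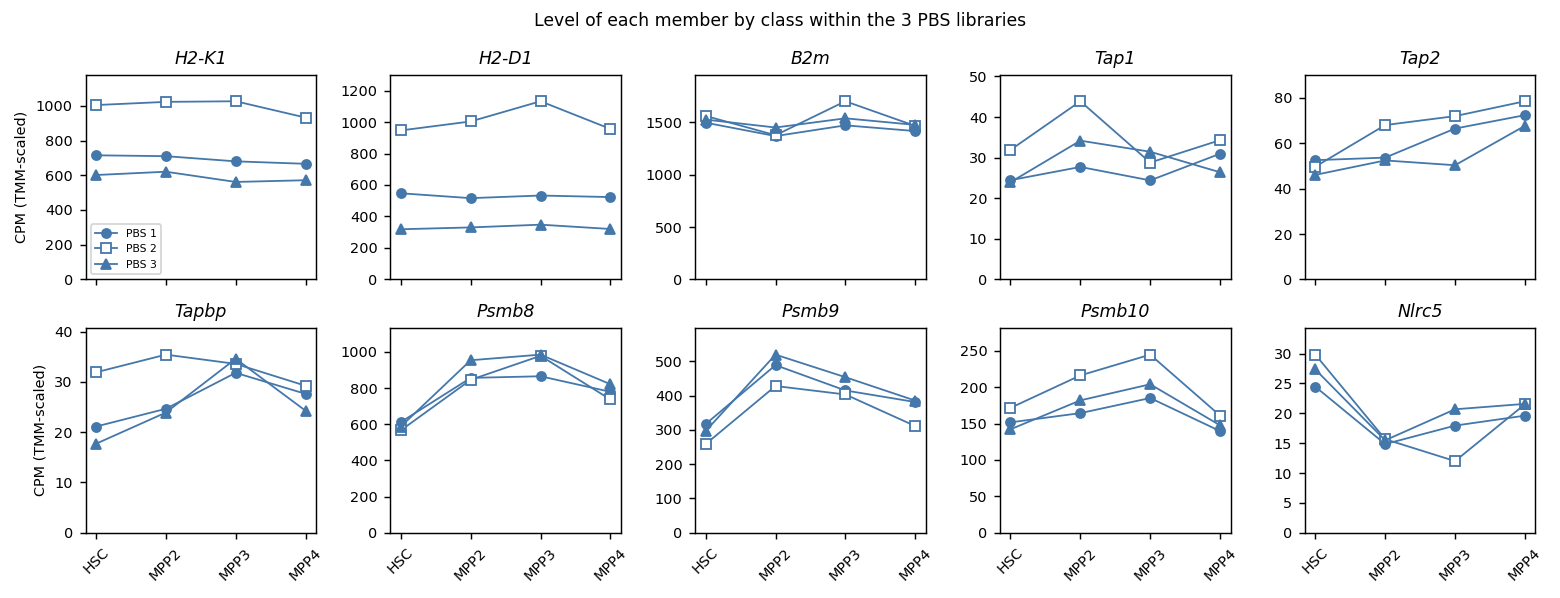
Level of each gene in CPM (TMM-scaled, linear axes from 0) by class, with 1 line for each PBS library. On this scaling Psmb8 and Psmb9 are lowest in HSC and Nlrc5 highest in HSC in all 3 libraries, while the lines of H2-K1 and H2-D1 run nearly level and differ between libraries.

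Psmb8 was at 612, 567 and 588 CPM in HSC of PBS libraries 1 to 3. It was at 857, 846 and 954 CPM in MPP-2, 866, 979 and 985 CPM in MPP-3 and 780, 737 and 822 CPM in MPP-4. Every MPP value of a library lay above its HSC value. The log2 differences from HSC were 0.59 ± 0.06, 0.66 ± 0.06 and 0.40 ± 0.06 (edgeR adjusted p of 2.0e-05 or lower). Psmb9 was at 317, 258 and 297 CPM in HSC and 489, 428 and 519 CPM in MPP-2, a log2 difference of 0.72 ± 0.06. In MPP-3 it stood at 415, 403 and 453 CPM (0.52 ± 0.07) and in MPP-4 at 381, 311 and 385 CPM (0.30 ± 0.06). Psmb10 was called higher than HSC in MPP-2 (0.26 ± 0.06; 0.20 with edgeR adjusted p = 0.0894 without PBS library 3) and MPP-3 (0.41 ± 0.07), and not in MPP-4 (-0.06, 95% interval -0.19 to 0.07).

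These are shares of a strong background: 51.6% of all genes tested were called between MPP-2 and HSC, 35.8% between MPP-3 and HSC and 28.1% between MPP-4 and HSC, with 5, 6 and 4 of the 10 genes. The first of these counts was 3 to 6 when each PBS library was left out, with 3 without PBS library 3, beside 38.8%, 47.1% and 38.3% of all genes without PBS libraries 1, 2 and 3. In the same order the counts were 5, 5 and 4 in MPP-3, beside 25.9%, 33.5% and 21.9% of all genes, and 3, 5 and 3 in MPP-4, beside 18.1%, 25.9% and 16.7%. The constitutive subunits went the same way. Psmb5, Psmb6 and Psmb7 were all called higher in MPP-2 and MPP-3, with medians of 0.72 and 0.50, and 2 of them in MPP-4. The Psmb8 share of its pair in PBS was 71.0% ± 1.46 (SD, n = 3) in HSC, 69.0% ± 1.60 in MPP-2 cells, 72.2% ± 1.84 in MPP-3 cells and 73.5% ± 1.13 in MPP-4 cells. For Psmb9 the shares were 59.1% ± 3.17, 60.8% ± 2.60, 61.8% ± 2.78 and 62.1% ± 2.92, in the same order, and for Psmb10 75.7% ± 2.36, 68.8% ± 2.47, 73.2% ± 2.11 and 71.4% ± 0.568. Class shares were not tested against each other. Pomp, Psme1, Psme2 and Psme3 were called higher than HSC in MPP-2 and MPP-3 as well, 4 of 4 in each.

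Nlrc5 showed the reverse order. It was at 24.4, 29.8 and 27.3 CPM in HSC and at 14.8, 15.7 and 15.5 CPM in MPP-2, a log2 difference of -0.80 ± 0.11. The MPP-3 values were 17.9, 12.0 and 20.7 CPM (-0.50 ± 0.14) and the MPP-4 values 19.6, 21.5 and 21.6 CPM (-0.36 ± 0.11). All 3 differences were called by edgeR (adjusted p of 0.0131 or lower). The calls in MPP-3 and MPP-4 were lost without PBS library 1 (adjusted p = 0.0947 and 0.129) and without PBS library 3 (0.0503 and 0.104), at log2 differences of -0.53, -0.35, -0.56 and -0.36. The call in MPP-2 held without each library. The value of 12.0 CPM comes from the 41 MPP-3 cells of PBS library 2. Of the other transcription factors, 9 were tested. In MPP-2, 2 were called higher and 3 lower than HSC, in MPP-3 1 and 2, and in MPP-4 1 and 0. Of all genes tested, 51.6%, 35.8% and 28.1% were called in these classes. Irf2 and Irf1 were called lower than HSC in MPP-2 and MPP-3, and Nfyb, a subunit of the NF-Y complex, was called higher in all 3 MPP classes. The log2 differences were -0.44 and -0.59 for Irf2, -0.43 and -0.28 for Irf1, and 1.11, 0.56 and 0.51 for Nfyb.

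Of the transporter genes, Tap2 was at 52.6, 49.7 and 46.1 CPM in HSC and 72.4, 78.5 and 67.7 CPM in MPP-4, a log2 difference of 0.53 ± 0.08. Tap1 was called higher in MPP-2 alone (0.36 ± 0.12, edgeR adjusted p = 0.0131), a call that was lost without PBS library 3 (0.28, adjusted p = 0.146). Tapbp was called higher in MPP-3 (0.63 ± 0.15, edgeR adjusted p = 0.00149; 0.48 with adjusted p = 0.0789 without PBS library 3), where Tap2 was also called (0.32 ± 0.11; 0.28 and 0.27 with adjusted p = 0.238 and 0.0626 without PBS library 1 or 2). Among the chaperones, Calr and Pdia3 were called higher in MPP-3 too, by 1.27 and 0.84.

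With all clusters and TMM scaling, neither heavy chain was called between any MPP class and HSC, whereas plain totals called both lower in MPP-2 and MPP-3, as given above. H2-K1 averaged 774 CPM in HSC, and 785, 756 and 723 CPM in the MPP classes in order of number, and H2-D1 604, 617, 671 and 600 CPM likewise. In CPM of plain totals H2-K1 averaged 870.4, 757, 631 and 781, and B2m ran from 1652 to 1808 in HSC, from 1303 to 1436 in MPP-2 and from 1207 to 1513 in MPP-3, without overlap with HSC. The 95% intervals of the log2 differences from HSC lay within -0.21 and 0.13 for H2-K1 and within -0.14 and 0.24 for H2-D1. The spread of H2-D1 between PBS libraries was much wider, as all 4 classes of PBS library 2 lay above all 4 classes of PBS libraries 1 and 3. In MPP-3, 141 of 1259 PBS cells belong to clusters 6 to 8. Without clusters 6 to 8, a choice made after seeing the data, B2m was called lower in MPP-3 than in HSC (-0.23 ± 0.05, edgeR adjusted p = 3.22e-04, against 0.03 with them), and so was H2-K1 (-0.17 ± 0.05, adjusted p = 0.00834), beside 36.5% of all genes tested.

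By the deposited phase calls, the classes differ in cell cycle, and the members differ between phases. Cycling genes, picked after seeing the data, were also read in the class sums, in CPM of plain totals: Mki67 was at 4.56 to 8.84 in HSC, 81.4 to 115.6 in MPP-2, 5.11 to 27.8 in MPP-3 and 11.2 to 21.6 in MPP-4 of PBS, and Top2a at 41.6 to 63.7, 465 to 538, 73.2 to 183 and 114 to 147. Both were lowest in HSC and highest in MPP-2 in every PBS library. In PBS, 84.1% to 87.9% of HSC were assigned to G1, against 6.06% to 12.9% of MPP-2, 55.5% to 58.5% of MPP-3 and 71.7% to 75.9% of MPP-4. Within each PBS library, S phase cells had more Psmb8 and Psmb9 relative to all UMIs than G1 cells and less H2-K1, H2-D1, B2m and Nlrc5. The mean log2 differences were 0.36 ± 0.03 (SD, n = 3) for Psmb8, 0.46 ± 0.10 for Psmb9, -0.41 ± 0.05 for H2-K1, -0.37 ± 0.06 for H2-D1, -0.41 ± 0.06 for B2m and -0.43 ± 0.04 for Nlrc5. In G2/M cells the heavy chains were close to their G1 level (0.06 ± 0.07 for H2-K1 and -0.06 ± 0.09 for H2-D1), B2m remained lower (-0.26 ± 0.02), and Nlrc5 was lowest (-0.76 ± 0.24). AML library 3 had the sign of the PBS mean for 9 of the 10 genes in S phase. AML library 1, with 102 G1 cells, had it for 7, and differed at Tap1 (-0.36), Tap2 (0.22) and Nlrc5 (0.49). The phase sums pool all classes, and the classes differ in phase, so differences of phase and of class cannot be told apart in them. These differences are descriptions, since phases are not independent samples and no test was run on them.

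**Figure D5:**
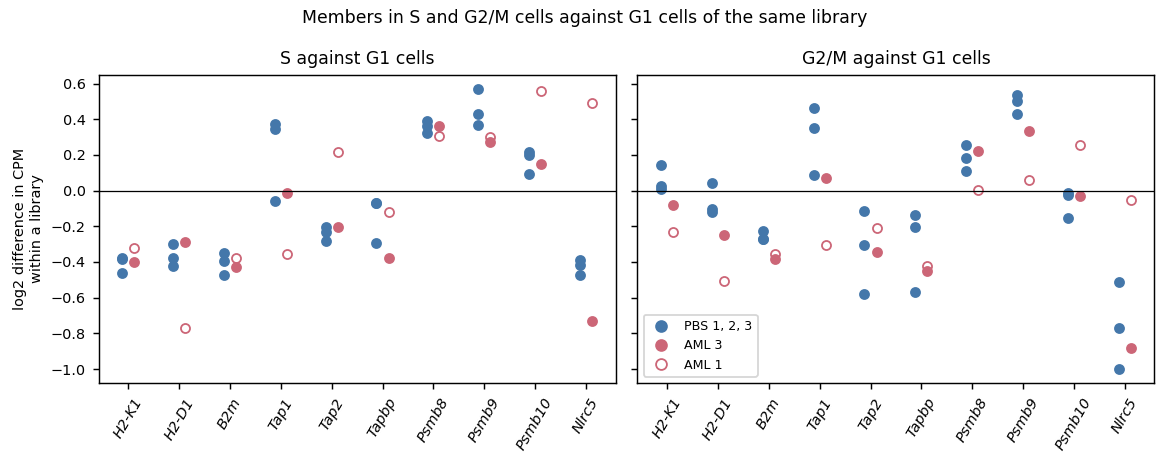
Log2 difference in CPM between S and G1 cells (left) and G2/M and G1 cells (right) of the same library for each gene, for the 3 PBS libraries (blue), AML library 3 (filled red) and AML library 1 (open red). In the PBS libraries Psmb8 and Psmb9 lie above 0 in both panels, while B2m, Tap2, Tapbp and Nlrc5 lie below.

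The class comparison was repeated in G1 cells, a restriction chosen after seeing the data. PBS library 2 had under 20 G1 cells in MPP-2, so that class rests on 2 PBS libraries (11 sums in the fit), and so does MPP-3 once clusters 6 to 8 are left out (10 sums). Between MPP-2 and HSC, 3.25% of genes tested were called in G1 cells and 0 of the 10 members by edgeR (4 of the 10 at an unadjusted p under 0.05, beside 16.7% of all genes). Without clusters 6 to 8 as well, 8.53% of genes and 3 members (Psmb8, Psmb9 and Psmb10) were called, at log2 differences of 0.25, 0.24 and 0.34. In G1 cells of MPP-3, 15.0% of genes and 6 members were called, 1 of them B2m, higher than HSC (0.30, edgeR adjusted p = 0.0127), and without clusters 6 to 8, 14.1% and 5: Psmb8 (0.41), Psmb9 (0.28), Psmb10 (0.38), Tap2 (0.47) and Tapbp (0.63). In G1 cells of MPP-4 the counts were 19.5% and 3 members, and without clusters 6 to 8, 24.6% and 4: Psmb8 (0.38), Psmb9 (0.21), Tap2 (0.65) and Nlrc5 (-0.37). With TMM, Psmb8 was therefore called higher than HSC in G1 cells of all 3 MPP classes once clusters 6 to 8 were left out, and Nlrc5 lower in MPP-4 (in MPP-2 its difference was -0.62 with adjusted p = 0.168, and in MPP-3 -0.09). B2m in MPP-3 was then at -0.12 and not called. In CPM of plain totals with all clusters, Psmb8 in G1 cells averaged 638 in HSC and 727, 599.9 and 798 in the MPP classes in order of number, so that its higher value in MPP-3 depends on the scaling or the clusters.

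Levels across the authors' clusters are means of PBS libraries 1 and 3, since PBS library 2 has only 3 to 12 cells in clusters 6 to 8. H2-K1 and H2-D1 were highest in cluster 5, at 899.7 and 753 CPM, against 749 and 488 CPM in cluster 0, the largest cluster. Clusters 6 and 7 were the lowest, with 350 and 344 CPM of H2-K1 and 222 and 259 CPM of H2-D1. B2m went from 1076 CPM in cluster 7 to 1857 CPM in cluster 8. Psmb8 was highest in cluster 4 at 1132 CPM and lowest in cluster 6 at 303 CPM. Nlrc5 was at 26.6 CPM in cluster 0, 13.1 CPM in cluster 4 and 4.14 CPM in cluster 6. The clusters were formed on these cells, so the values are levels and no test is attached to them.

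The 10 genes did not move as 1 group. Over the 20 sums of 1 library and 1 class, Psmb8 correlated with Psmb9 at 0.87 and with Psmb10 at 0.88, while Tap1 and Psmb9, neighbours in opposite orientation, correlated at -0.44 and Nlrc5 and Psmb9 at -0.73. The genes most like the mean profile of the 10 were Coro1a, an actin-binding protein of leukocytes, with a correlation of 0.93, then Cnn2 (0.91), Mpdu1 (0.90), Nfkbil1 (0.90) and Abhd17a (0.89). The median correlation over the 3936 genes considered was 0.21. Tap1 and Nlrc5 correlated negatively with that profile, at -0.36 and -0.40. These values are descriptions over sums that share libraries, and the profile holds the 10 genes themselves.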

How the data were processed

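Per the labels, LSK cells were sorted from flushed bone marrow and libraries were made with Chromium GEM V3 chemistry. The submitters' processing notes name Cell Ranger 7.0.1, R 4.2.2, Seurat 4.3.0 and the build GRCm38 (mm10). The authors deposited raw UMI counts per gene and barcode for 6 libraries and a table of kept cells with class, cluster, phase and the percent of mitochondrial UMIs per cell. How cells were filtered and doublets treated was not given in those sources, and no doublet caller was run. UMI counts of kept cells were summed per library, class (at least 20 cells) or cluster. Sums were tested with edgeR 4.0.16 under R 4.3.3 (TMM, filterByExpr, quasi-likelihood F test, Benjamini-Hochberg over all genes tested, threshold 0.05), with DESeq2 1.42.0 and limma-voom (limma 3.58.1) beside it. CPM values use TMM-scaled totals, apart from clusters, phases, cycling genes, list totals and barcodes outside the table, which use plain totals. The labels do not say whether libraries are separate mice, so p-values measure the spread between libraries, which may be technical. The genes, lists and tests were chosen with earlier results of these data known. The 10 genes are named in every comparison, genes of other lists where called between AML and PBS or among the 4 most abundant of their list (marker genes called between PBS classes are not named), and the 5 other genes with a mean log2 CPM of at least 5 most like the mean profile. The fit was tested on simulated counts with changed genes before use. Catalytic pair shares were compared by an exact permutation test over libraries. The alternatives left out libraries, low-count filters or clusters 6 to 8, and changed normalization, depth, class weights and cells.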

Additional observations from a re-analysis of the deposited data

Results flagged for a closer look

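AML library 2 has no cell in the authors' table. It entered none of the comparisons above apart from the alternative setting with 6 libraries, so its values were set beside the PBS libraries. Over all its 17055 barcodes (7089569 UMIs), 4 of the 10 genes lay above every PBS library treated alike, in CPM of the plain total, as did 51.6% of all 14364 genes tested in all LSK cells, so that 4 of 10 is no larger than that share. Tap1 was at 88.7 CPM (PBS 28.4 to 36.7), Nlrc5 at 71.8 (19.6 to 20.8), Tapbp at 67.4 (23.2 to 32.3) and Tap2 at 94.4 (54.4 to 68.7). Among the 106 barcodes that had 1000 or more genes detected and a mitochondrial share of 10% or less, Tap1 was at 85.0 CPM, Nlrc5 at 42.5, Tapbp at 49.0 and H2-K1 at 987, each above every PBS library under the same filter, as were 37.0% of all genes. Other genes lay below every PBS library, as did 24.1% of all genes over all barcodes and 44.4% among the 106. Over all barcodes B2m was at 997 CPM (PBS 1419 to 1570), Psmb8 at 458 (763 to 887) and Psmb10 at 134 (164 to 193), and among the 106 barcodes they were at 1313, 591 and 127 CPM (PBS 1417 to 1573, 764 to 889 and 164 to 194). The higher values among the 106 barcodes rest on 26 UMIs of Tap1, 13 of Nlrc5 and 15 of Tapbp. With those barcodes in an edgeR fit of 6 libraries, the log2 fold change of Tap1 was 0.69 (adjusted p = 0.214) and that of Nlrc5 0.65 (adjusted p = 0.206), with 0 of the 10 genes called. This library shares 1223 barcodes with PBS library 2, 97.4% of the barcodes of that library, and the part of shared barcodes in its levels was not tested.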

How the results depend on the processing

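Values are log2 differences unless named otherwise, and the cause of a change was not tested. In all LSK cells every setting called 0 of the 10 genes. All genes called numbered 23, against 79 with DESeq2, 392 with no filter, 75 with an own filter on 6 libraries, 11 in thinned cells, and 91 with the replicate block. Within classes 0 of the 10 genes were called in any setting, while all genes called numbered 19, 5, 5 and 4 from HSC to MPP-4 and ranged over 11 settings from 0 to 29, 0 to 156, 2 to 166 and 0 to 75. The sample numbers would pair PBS and AML libraries 1 and 3. Deviations of same-numbered libraries correlated at -0.0574 and -0.0547. With 2 AML libraries these deviations mirror each other, so the values cannot show whether libraries are paired. The block turned H2-D1 to 0.17 and called 0 of the 10 genes. Leaving out each library gave -0.66 to 0.14 for H2-D1, -0.44 to -0.020 for H2-K1, -0.35 to 0.0080 for Tap2, -0.83 to 0.062 for Psmb8 and -0.42 to 0.051 for Psmb9, and -9.08 to 0.92 for Tapbp in HSC, where AML library 1 has 0 UMIs. A lone library is assumed to vary like the other group.

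Between MPP-2 and HSC, leaving out each PBS library gave 3 to 6 members called (38.3% to 47.1% of all genes), with H2-K1 at -0.0021 to 0.043 and H2-D1 at -0.012 to 0.077. Between MPP-3 and HSC it gave H2-K1 -0.090 to 0.0041, B2m -0.015 to 0.11 and Tap1 -0.012 to 0.31, and between MPP-4 and HSC H2-D1 -0.037 to 0.049 and Psmb10 -0.10 to 0.025. With no filter H2-D1 in MPP-4 was at 0.031. With plain totals, added after seeing the data, MPP-2 had H2-K1 at -0.21, H2-D1 at -0.21 and Tap2 at -0.046, and MPP-3 had H2-D1 at -0.29, B2m at -0.37, Tap1 at -0.20 and Tap2 at -0.012. In G1 cells, a setting added after seeing the data, MPP-2 had 0 members called, with H2-D1 at -0.025 and Tap1 at -0.0051, MPP-3 had H2-K1 at 0.18 and Tap1 at -0.043, and MPP-4 had H2-D1 at 0.0014. Without clusters 6 to 8, also added later, MPP-3 had H2-D1 at -0.018 and B2m at -0.23. With both, MPP-2 had 3 members called and H2-D1 at -0.031, MPP-3 had H2-D1 at -0.0072, B2m at -0.12 and Tap1 at -0.018, and MPP-4 had H2-D1 at 0.00062.

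The difference in immunosubunit share between AML and PBS, in percentage points, was -1.78 for Psmb8 and 8.96 for Psmb9 in G1 cells, where AML library 1 has 102 cells. Without each library it was -0.061 to 1.32 for Psmb8, -0.0083 to 2.37 for Psmb9 and -15.6 to -0.489 for Psmb10. Genes at low counts in AML library 1, such as Nlrc5 with 55 UMIs, limit how small a difference can be seen.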
